A study of Mus musculus with 18 samples.

Results

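The genes described here are 10 receptors for acetylcholine, noradrenaline and histamine, receptors that antipsychotic drugs meet besides their dopamine and serotonin targets. They were taken by symbol (Chrm1, Chrm2, Chrm3, Chrm4, Adra1a, Adra1b, Adra2a, Adra2c, Hrh1 and Hrh3), and 10 of 10 were found among the 56883 genes of the combined count table. The rule uses symbols and no measured value. All animals were B6;D2-Tg(S100B-EGFP)1Wjt/J, a line in which an S100B promoter drives a green fluorescent protein, so controls carried it too. Frontal cortex RNA was sequenced after intraperitoneal vehicle, clozapine (10 mg/kg) or a 1 mg/kg dose of risperidone once a day for 14 days, from postnatal day 60 to 74, and the mice were killed on day 75. Cortices of 5 animals made a pool, each treatment had 2 pools (batch 1 and batch 2), and each pool was panned on antibody plates in sequence. Endothelial cells were removed first, CD45 then captured microglia, oligodendrocyte-lineage cells were removed, and Thy1 captured neurons before HepaCAM captured astrocytes. The 3 fractions made 18 libraries in 9 groups of n = 2. The labels speak of male and female mice in one place and of adult males in another, so the sex of the pools is not settled.

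These receptors are membrane-spanning proteins that act through G proteins. Those encoded by Chrm1, Chrm3, Adra1a, Adra1b and Hrh1 couple to Gq, which activates phospholipase C and raises cell calcium, whereas those of Chrm2, Chrm4, Adra2a, Adra2c and Hrh3 couple to Gi and Go, which lower cyclic AMP. In cortex the muscarinic receptors carry the action of basal forebrain acetylcholine, the adrenergic receptors that of the locus coeruleus, and the histamine receptors that of the tuberomammillary nucleus. Hrh3 and Adra2a are also known as autoreceptors on the histamine and noradrenaline neurons themselves, whose cell bodies lie outside the cortex. Clozapine binds muscarinic, adrenergic and histamine receptors, and risperidone binds adrenergic and histamine receptors with little muscarinic affinity.

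Windows of 300 bases around the RefSeq transcription starts (250 before to 50 after, GRCm38.p6) were found for 8 of the 10 genes, and 3 are shown as examples. Chrm4 and Hrh3 were higher in the neuron fraction than in both others, and Adra2a was not called between any 2 fractions. Capitals mark 3 short promoter motifs, each searched on both strands with overlapping matches counted. The first is the GC box, GGGCGG. A second motif searched was the TATA box, spelled TATAAA here. The last one searched was the CCAAT box, spelled by its name.
Chrm4, chr2:91921939-91922238, plus strand: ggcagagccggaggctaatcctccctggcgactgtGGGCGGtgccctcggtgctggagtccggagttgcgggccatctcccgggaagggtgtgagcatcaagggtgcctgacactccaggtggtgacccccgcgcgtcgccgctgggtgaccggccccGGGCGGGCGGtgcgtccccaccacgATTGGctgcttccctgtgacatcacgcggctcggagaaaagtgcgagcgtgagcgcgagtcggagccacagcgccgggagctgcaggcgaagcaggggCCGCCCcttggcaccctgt
Hrh3, chr2:180104358-180104657, minus strand: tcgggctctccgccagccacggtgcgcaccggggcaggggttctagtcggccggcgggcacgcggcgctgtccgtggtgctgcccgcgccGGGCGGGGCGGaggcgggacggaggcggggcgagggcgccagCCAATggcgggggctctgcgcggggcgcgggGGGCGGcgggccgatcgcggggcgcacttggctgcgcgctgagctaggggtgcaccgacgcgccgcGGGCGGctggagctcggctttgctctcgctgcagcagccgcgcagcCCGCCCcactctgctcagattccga
Adra2a, chr19:54045009-54045308, plus strand: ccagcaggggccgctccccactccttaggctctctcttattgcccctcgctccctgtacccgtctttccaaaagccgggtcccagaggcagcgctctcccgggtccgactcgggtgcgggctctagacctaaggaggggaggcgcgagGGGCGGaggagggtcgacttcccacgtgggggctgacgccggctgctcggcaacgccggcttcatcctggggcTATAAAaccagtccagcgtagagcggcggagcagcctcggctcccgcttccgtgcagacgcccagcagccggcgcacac
The Hrh3 window held 5 GC boxes and 1 CCAAT motif at 79% G and C, and the Chrm4 window 4 GC boxes and 1 CCAAT motif at 70.7%. The Adra2a window held 1 GC box and 1 TATA motif at 68.7%. It lies inside the GENCODE model of Adra2a, which starts at 54044151 in GRCm38, before the RefSeq start. Over 32851 such windows the median G and C content was 52.7%. A GC box was present in 35.7% of them, the TATA motif in 13.6% and the CCAAT motif in 37.4%. The other neuron-high genes with a window had fewer GC boxes. Chrm2 had 1 at 52.7% G and C, Chrm3 0 at 57.3% and Adra2c 0 at 51.3%. Hrh1, not called between astrocytes and neurons, had 5 at 78.3% in 1 of its windows. These matches describe the letters of the windows only. The cyclic AMP response element TGACGTCA, present in 1.79% of all windows, was found in none of the 12 windows of the 8 genes, which says only that these letters are not there.

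The 18 libraries held 4.71 to 13.39 M assigned counts, with a median of 7.44 M. All 12 microglia markers were called higher in microglia than in both other fractions, and 12 of 12 astrocyte markers higher in astrocytes than in microglia (8 of 12 against neurons). The 12 pan-neuronal markers were called higher in neurons than in both other fractions. The fractions were not pure. Summed pan-neuronal markers ran from 1074 to 5085 CPM (counts scaled to a common library size) in microglia, from 1688 to 4555 in astrocytes and from 5587 to 14740 in neurons, with none of the 12 at 0 in any library. Astrocyte markers summed to 4282 to 10675 CPM in the neuron fraction against 10578 to 22733 in the astrocyte fraction. Oligodendrocyte markers summed to 7593 to 38759 CPM in the neuron fraction and 7008 to 44077 in the astrocyte fraction. The 10 striatal projection neuron markers summed to 354 to 1693 CPM over all libraries. In bulk RNA, fewer cells of a type and less RNA per cell cannot be told apart.

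All 10 receptor genes were detected in all 18 libraries and all passed the low-count filter. Levels below are CPM on library sizes scaled by the trimmed mean of M values (TMM), and CPM per kb of exon where genes are compared with each other. A difference is a log2 fold change, given with its SE (standard error), and a gene is called where its Benjamini-Hochberg adjusted p in edgeR's quasi-likelihood test over all genes is under 0.05. Fraction differences use all 18 libraries and average over the treatments.

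**Figure D1:**
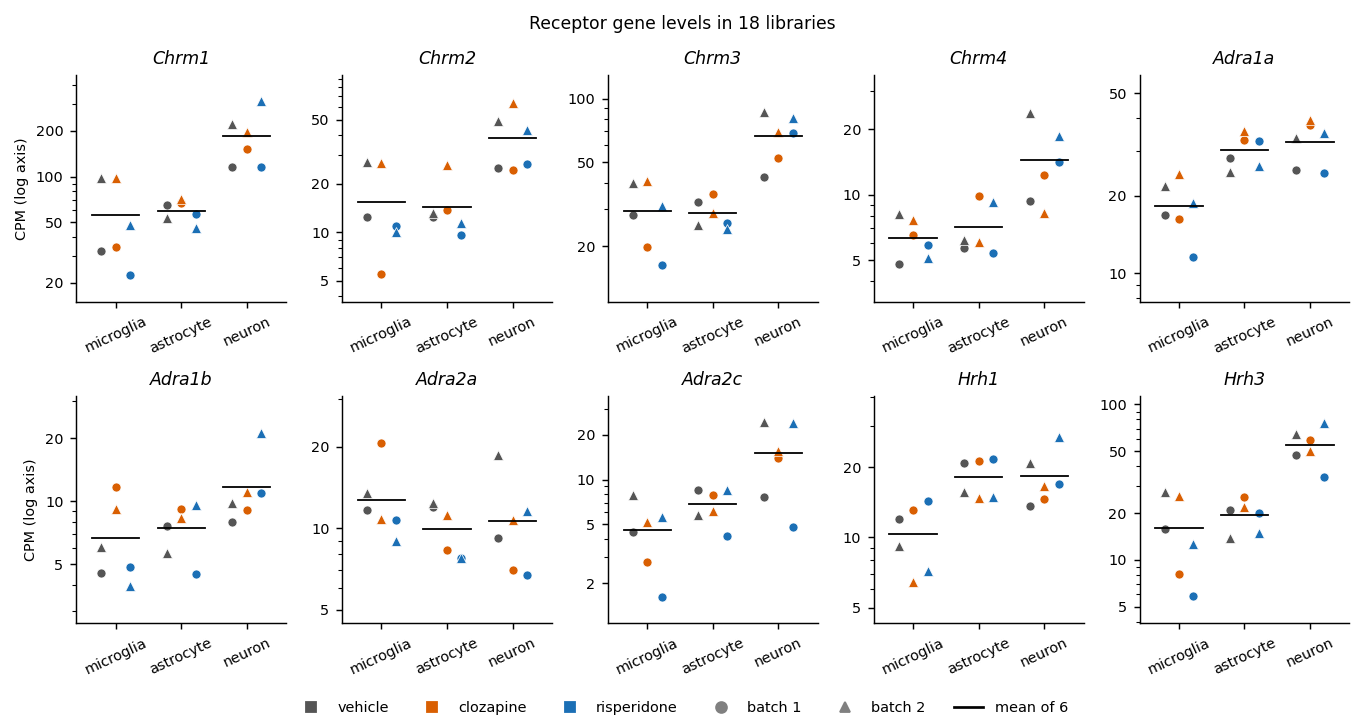
Level of each receptor gene (CPM, log axis) in the microglia, astrocyte and neuron fractions. Each point is 1 library, colours are treatments, shapes are batches and bars are means of 6 libraries. The neuron libraries of Chrm1, Chrm3 and Hrh3 lie above all others, and those of Adra2a overlap with the other fractions.

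The 4 muscarinic receptor genes were higher in the neuron fraction than in the other fractions. Chrm1 (GRCm39 chr19:8641153-8660951), the main cortical Gq-coupled muscarinic receptor, ranged from 22.4 to 98.3 CPM in microglia (median 41.0), from 45.6 to 70.6 in astrocytes (median 60.6) and from 116 to 314 in neurons (median 174). The 6 neuron libraries were above all other libraries. The difference was -1.80 (SE 0.33, adjusted p = 0.00022) for microglia minus neurons and -1.64 (SE 0.33, adjusted p = 0.0039) for astrocytes minus neurons. Chrm3 (chr13:9925522-10410883, minus strand), also Gq-coupled, showed the same separation, with 16.3 to 40.9 CPM in microglia, 24.2 to 35.5 in astrocytes and 42.4 to 86.7 in neurons. Its differences from neurons were -1.20 (SE 0.24, adjusted p = 0.00053) in microglia and -1.22 (SE 0.25, adjusted p = 0.0039) in astrocytes.

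Chrm2 and Chrm4, the Gi-coupled muscarinic receptors, were also called lower than in neurons in both other fractions, but with overlapping libraries. Chrm2 (chr6:36365019-36505349) ranged from 5.52 to 27.5 CPM in microglia (median 11.6), 9.55 to 26.3 in astrocytes (median 12.8) and 24.5 to 63.8 in neurons (median 34.8). It was -1.36 (SE 0.33, adjusted p = 0.0022) in microglia and -1.47 (SE 0.33, adjusted p = 0.0053) in astrocytes relative to neurons. The libraries within the neuron range were microglia of the batch 2 vehicle and clozapine pools and astrocytes of the batch 2 clozapine pool. Chrm4 (chr2:91757594-91759033, a single exon of 1440 bases in the counting annotation) ranged from 4.81 to 8.15 CPM in microglia, 5.39 to 9.85 in astrocytes and 8.25 to 23.8 in neurons. All neuron libraries exceeded all microglia libraries, and 4 of the 6 exceeded all astrocyte libraries. Its difference from neurons was -1.15 (SE 0.28, adjusted p = 0.0022) in microglia and -1.01 (SE 0.28, adjusted p = 0.015) in astrocytes. In GRCm38, the RefSeq gene starts 5060 bases before the GENCODE model and ends 1147 bases after it, so its level rests on that 1 exon. On the opposite strand 9330158H04Rik shares 142 bases (2.35%) of the Chrm2 exons and an unnamed gene shares 329 bases (5.07%) of those of Chrm1, with 990 and 151 counts in all against 3407 and 14721.

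Hrh3 and Adra2c, both Gi-coupled and both known on axon terminals, were also lower in both glial fractions than in neurons. Hrh3 (chr2:179741258-179746281, minus strand) ranged from 5.89 to 27.5 CPM in microglia (median 14.3), 13.8 to 25.5 in astrocytes (median 20.5) and 34.0 to 76.0 in neurons (median 54.3), and no neuron library overlapped with another fraction. Microglia minus neurons was -1.87 (SE 0.29, adjusted p = 3.2e-05) and astrocytes minus neurons -1.51 (SE 0.28, adjusted p = 0.0033). On the opposite strand, Gm17180 shares 349 bases (11.1%) of the Hrh3 exons. It was counted 1236 times in all against 4376 for Hrh3, and reads of the shared bases cannot be assigned to a strand here. Adra2c (chr5:35435663-35439107), a presynaptic noradrenaline receptor, ranged from 1.62 to 7.83 CPM in microglia (median 4.81), 4.16 to 8.56 in astrocytes (median 7.03) and 4.80 to 24.5 in neurons (median 14.9). It was -1.76 (SE 0.39, adjusted p = 0.0011) in microglia and -1.15 (SE 0.38, adjusted p = 0.034) in astrocytes relative to neurons, and the neuron libraries of the batch 1 vehicle (7.62) and risperidone (4.80) pools lay within the range of the astrocyte libraries.

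Adra1a and Hrh1, Gq-coupled receptors for noradrenaline and histamine, showed another pattern, lower in microglia and not called between astrocytes and neurons. Adra1a (chr14:66872700-67008617) ranged from 11.6 to 24.3 CPM in microglia (median 17.9), 24.9 to 35.8 in astrocytes (median 30.3) and 24.4 to 39.5 in neurons (median 34.2). The microglia libraries lay below all others, at -0.72 (SE 0.21, adjusted p = 0.020) against astrocytes and -0.83 (SE 0.21, adjusted p = 0.0030) against neurons, while astrocytes minus neurons was -0.11 (SE 0.20, adjusted p = 0.71). Hrh1 (chr6:114374897-114460257) ranged from 6.46 to 14.3 CPM in microglia (median 10.6), 14.8 to 21.7 in astrocytes (median 18.3) and 13.6 to 26.9 in neurons (median 16.7). It was -0.82 (SE 0.25, adjusted p = 0.031) in microglia against astrocytes, -0.81 (SE 0.25, adjusted p = 0.013) against neurons, and 0.01 (SE 0.25, adjusted p = 0.99) for astrocytes minus neurons. The sign of both astrocyte-neuron differences was not stable. Adra1a was 0.01 with RLE scaling and 0.37 with library totals alone, and Hrh1 was -0.03 with the pool as a replicate block.

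Hrh1 separated by batch in 2 fractions, and it was not alone in this. Chrm1, Chrm3 and Adra2c separated in microglia and neurons, Adra1a in microglia, and Chrm2 and Adra2a in neurons, all higher in batch 2. Chrm1 in neurons held 116, 151 and 116 CPM in batch 1 and 224, 197 and 314 in batch 2. The share of all genes that separate by batch is not given. For Hrh1 in astrocytes the 3 batch 1 libraries held 20.8, 21.2 and 21.7 CPM and the 3 batch 2 libraries 15.7, 14.8 and 14.9. In microglia, batch 1 held 12.0, 13.1 and 14.3 CPM and batch 2 9.21, 6.46 and 7.19, each in the order vehicle, clozapine, risperidone. The batches did not overlap in either fraction, and in neurons the batch 1 values (13.6, 14.6 and 16.9) and batch 2 values (20.8, 16.6 and 26.9) did overlap. Within batch 1 Hrh1 was -0.69 in microglia minus astrocytes and 0.50 in astrocytes minus neurons, and within batch 2 it was -0.98 and -0.47. The microglia-astrocyte difference thus held its direction in both batches, and the astrocyte-neuron difference did not. Summed astrocyte markers moved the same way. In the same order they were 14573, 16286 and 22733 CPM in batch 1 and 10701, 11250 and 10578 in batch 2 of the astrocyte fraction, and 2737, 4681 and 3683 against 2114, 2735 and 1521 in microglia. In neurons they were 4282, 7346 and 4954 against 9658, 5489 and 10675, and the 2 libraries with the highest sums also had the highest Hrh1. The part of astrocyte RNA in these Hrh1 levels was not tested.

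Adra1b and Adra2a had the fewest called differences between fractions. Adra1b (chr11:43665433-43792037, minus strand), the Gq-coupled relative of Adra1a, had medians of 5.44 CPM in microglia, 7.94 in astrocytes and 10.4 in neurons, with overlap between all fractions. It was called only between microglia and neurons (-0.86, SE 0.27, adjusted p = 0.013), and astrocytes minus neurons was -0.61 (SE 0.27, adjusted p = 0.089). Adra2a (chr19:54032582-54037413), the Gi-coupled receptor at which clonidine and guanfacine act, was the sole member with its highest median in microglia. It ranged from 8.93 to 20.6 CPM in microglia (median 11.3), 7.75 to 12.4 in astrocytes (median 9.74) and 6.69 to 18.6 in neurons (median 9.94), and no comparison passed the test. Microglia minus neurons was 0.26 (SE 0.25, adjusted p = 0.40) and astrocytes minus neurons -0.10 (SE 0.25, adjusted p = 0.80). With library totals in place of TMM, Adra2a was called higher in microglia than in neurons (0.86, SE 0.26, adjusted p = 0.014), and its astrocyte-neuron difference turned to 0.43.

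**Figure D2:**
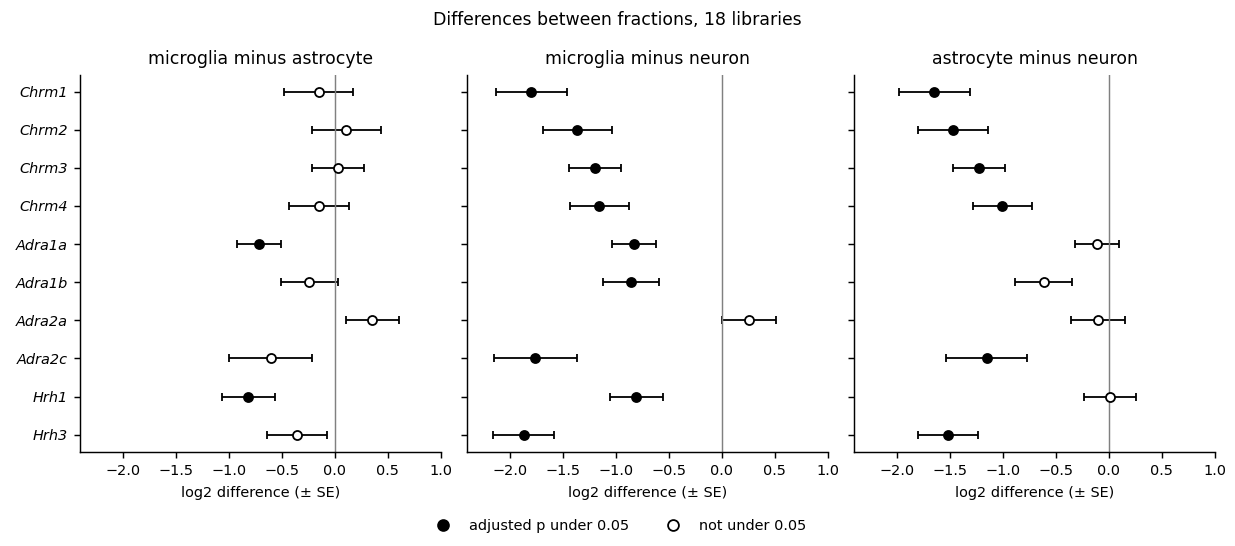
Log2 difference between fractions for the 10 receptor genes, from the fit to 18 libraries, with SE bars. Filled points have an adjusted p under 0.05: 2 genes between microglia and astrocytes, 9 between microglia and neurons and 6 between astrocytes and neurons.

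In counts, 2 of 10 receptor genes were called between microglia and astrocytes, both lower in microglia, where 13% of the 37310 genes tested were called, 6.85% lower and 6.18% higher. Between microglia and neurons 9 of 10 were called, all lower in microglia, where 47.1% of genes were called, 18.8% lower and 28.2% higher. Between astrocytes and neurons 6 of 10 were called, all lower in astrocytes, where 23.7% of genes were called, 9.17% lower and 14.6% higher. The median difference of the 10 genes was -0.20, -1.18 and -1.08 in these comparisons, and that of all genes tested was 0.02, 0.62 and 0.46. Within batch 1 and within batch 2, all 9 genes called between microglia and neurons were lower in microglia. Batch 1 values ran from -0.19 (Hrh1) to -2.28 (Hrh3) and batch 2 values from -0.73 (Adra1a) to -1.75 (Adra2c). The 6 genes called between astrocytes and neurons were on average lower in astrocytes in both batches, with -0.28 and -1.61 for Adra2c and -1.01 and -2.11 for Chrm1. Adra1a was lower in microglia than in astrocytes in both, at -1.06 and -0.40. Single pools differed for 2 of these calls. Adra1b was higher in microglia than in neurons in 1 of 6 pools (0.36, clozapine batch 1). Adra2c was higher in astrocytes than in neurons in 1 of 6 (0.16, vehicle batch 1). The replicate block and DESeq2 gave the same counts of 2, 9 and 6. With vehicle libraries alone, 2 per fraction, the counts were 0, 0 and 0, where the share of all genes called was 2.41%, 6.1% and 0.00337%. In those vehicle fits 0, 4 and 6 receptor genes had an unadjusted p under 0.05 with edgeR, and DESeq2 called 0, 1 and 0. The shares of all genes beside these unadjusted and DESeq2 counts are not given, so the counts are descriptions.

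Scaling mattered for the comparisons with neurons. The median of all genes moved from 0.62 to 1.13 for microglia minus neurons and from 0.46 to 0.93 for astrocytes minus neurons when library totals alone were used, a scaling added after the data were seen. Of all genes called, 40% and 38.7% were lower than in neurons with TMM and 20.3% and 13.1% with library totals. On that scale 5 receptor genes were called between microglia and neurons: Chrm1, Chrm3, Adra2c and Hrh3 lower and Adra2a higher. Between astrocytes and neurons 3 were called, namely Chrm1, Chrm3 and Hrh3. The call was lost for Chrm2 (-0.78, adjusted p = 0.070), Chrm4 (-0.57, adjusted p = 0.13), Adra1a (-0.25), Adra1b (-0.27) and Hrh1 (-0.22) in microglia and for Chrm2 (-0.94, adjusted p = 0.051), Chrm4 (-0.47) and Adra2c (-0.56) in astrocytes. With RLE the astrocyte-neuron call of Adra2c was also lost (-1.02, adjusted p = 0.059), which left 5 genes. The calls for Chrm1, Chrm3 and Hrh3 against neurons were kept with TMM, RLE and library totals and with each of the 18 libraries left out.

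Chrm2 was also called against neurons without each library in both comparisons, as were Chrm4, Adra1a and Adra2c for microglia minus neurons. The remaining calls were lost without certain libraries. In microglia minus astrocytes, the Adra1a call was lost in 9 of 18 fits, those without the batch 1 library of any microglia or astrocyte group, the astrocyte clozapine batch 2 library, or either neuron clozapine library (-0.60 to -0.70, adjusted p from 0.056 to 0.11). The Hrh1 call was lost in 7, without any batch 2 microglia library, any batch 1 astrocyte library or the neuron clozapine batch 2 library (-0.67 to -0.79, adjusted p from 0.0503 to 0.145). Microglia minus neurons lost Adra1b without any batch 2 neuron library (-0.58 to -0.74), and Hrh1 without the microglia risperidone, neuron vehicle or neuron risperidone library of batch 2 (-0.61 to -0.67). Astrocytes minus neurons lost Chrm4 without the batch 2 astrocyte vehicle, astrocyte clozapine, neuron vehicle or neuron risperidone library (-0.68 to -0.96). Adra2c was lost there in 9 of 18 fits, and most without the neuron risperidone batch 2 library (-0.58, SE 0.37, adjusted p = 0.27) or the neuron vehicle batch 2 library (-0.75, adjusted p = 0.18). The 7 others were the batch 2 astrocyte vehicle, both astrocyte clozapine, both astrocyte risperidone and both neuron clozapine libraries (-0.98 to -1.25). Its call against microglia held without each library but moved to -1.13 without neuron risperidone batch 2. Adra1b became called in astrocytes minus neurons without neuron risperidone batch 1 (-0.75, adjusted p = 0.035).

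Levels per kb of exon put the genes in order within a fraction. In neurons Chrm1 was highest at 28.7 ± 11.7 CPM per kb (SD, n = 6), followed by Hrh3 at 17.5 ± 4.63, Chrm3 at 10.7 ± 2.69, Chrm4 at 10.0 ± 4.08 and Chrm2 at 6.40 ± 2.67. Adra2c (4.40 ± 2.38), Hrh1 (4.10 ± 1.11), Adra1a (3.73 ± 0.72), Adra1b (3.45 ± 1.43) and Adra2a (2.20 ± 0.91) closed the order, and neighbours in it differed by less than the larger of their SDs except for Hrh3 and Chrm3. In astrocytes Chrm1 (9.19 ± 1.46) and Hrh3 (6.20 ± 1.41) again led, with Hrh1 (4.09 ± 0.76) as the fifth and Adra2c last (1.99 ± 0.51). In microglia Chrm1 (8.55 ± 5.23), Hrh3 (5.07 ± 2.84), Chrm3 (4.69 ± 1.62) and Chrm4 (4.41 ± 0.93) differed from each other in turn by less than the larger SD. Adra2a (2.63 ± 0.86) was the fifth, below Chrm4 by more than either SD. Of the summed level per kb of the 10 genes, Chrm1 took 30.7% ± 3.62 in neurons, 22.4% ± 1.95 in astrocytes and 22.3% ± 6.51 in microglia.

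In microglia, Chrm1 was higher in the libraries with more neuronal marker RNA, whereas not all neuron-high genes followed these markers in astrocytes. The 6 microglia libraries held 32.3 and 98.3 CPM of Chrm1 with vehicle (batch 1 and 2), 34.3 and 97.7 with clozapine and 22.4 and 47.8 with risperidone. Their summed pan-neuronal markers were 1482 and 3364, 1589 and 5085, and 1074 and 2015 CPM. Per 1000 CPM of pan-neuronal markers, a ratio within a library that does not depend on scaling, Chrm1 had medians of 21.7 CPM in microglia (19.2 to 29.2), 16.8 in astrocytes (15.5 to 29.0) and 17.3 in neurons (13.3 to 22.9). For Hrh3 these medians were 5.88 (5.04 to 10.7), 5.99 (4.82 to 8.76) and 5.77 (3.39 to 6.63). The fractions overlapped in this ratio for both genes. The other neuron-high genes had their lowest median ratio in neurons, also with overlapping libraries. In the same order the medians were 13.8, 8.53 and 5.91 for Chrm3 and 6.72, 4.53 and 3.78 for Chrm2. They were 2.89, 1.97 and 1.33 for Chrm4 and 2.03, 2.07 and 1.25 for Adra2c. In astrocytes Chrm4 was at 9.30 CPM in the library with the lowest marker sum (1688) and at 6.08 in that with the highest (4555). Adra2c was at 8.53 and 6.18 in these libraries. The highest values were in other libraries, 9.85 for Chrm4 in clozapine batch 1 (sum 4179) and 8.56 for Adra2c in vehicle batch 1 (3785). Neither gene rose or fell steadily with the sum. For Adra2a the medians were 6.17, 2.81 and 1.02, for Hrh1 5.82, 5.92 and 1.81, and for Adra1a 9.79, 8.72 and 3.13. For Adra1a all neuron libraries (2.55 to 4.37) lay below all microglia (4.79 to 11.4) and astrocyte libraries (7.39 to 15.5). The part of neuronal RNA in the receptor levels of the glial fractions was not tested. The ratio was chosen after the values were seen.

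**Figure D3:**
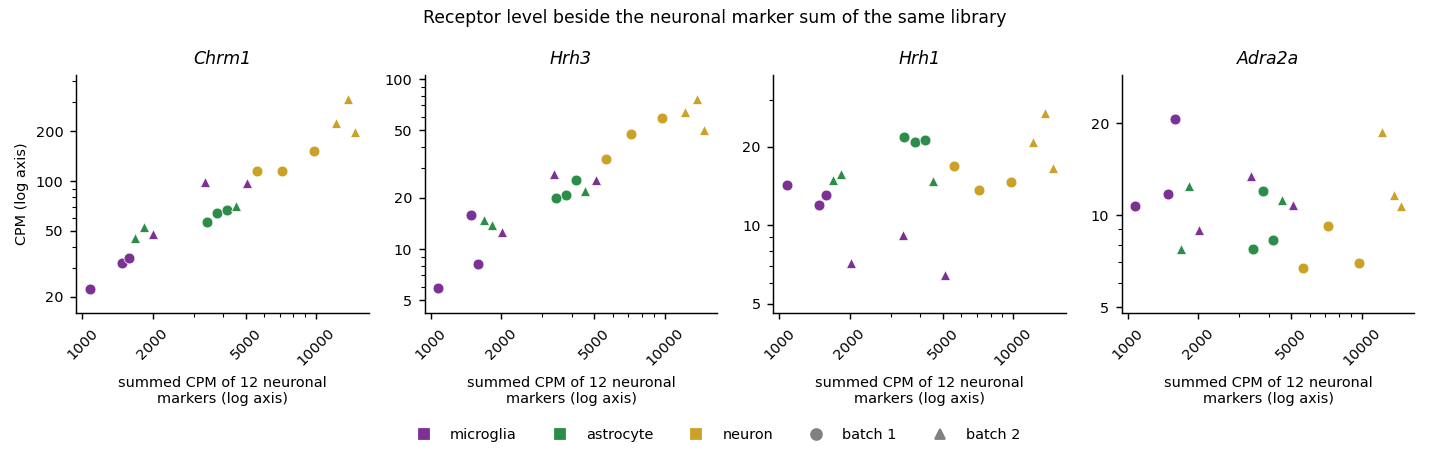
Level of Chrm1, Hrh3, Hrh1 and Adra2a (CPM, log axis) against the summed CPM of 12 pan-neuronal markers in the same library (log axis), with colours for fractions and shapes for batches. Chrm1 and Hrh3 tend to be higher in libraries with a higher marker sum, and Hrh1 and Adra2a do not line up with it.

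Chrm1, Chrm3 and Hrh3 varied together across libraries, and other members varied with them. Over 18 libraries, log2 CPM of Chrm1 and Hrh3 had a Pearson r of 0.96, and 0.88 after each fraction's mean was removed. For Chrm1 and Chrm3 these were 0.95 and 0.85. With Chrm1 they were 0.88 and 0.74 for Chrm2, 0.87 and 0.77 for Adra2c and 0.75 and 0.82 for Adra1a. Within fractions they were lower for Chrm4 (0.79 and 0.42) and Adra1b (0.67 and 0.39). Hrh1 ran apart from Chrm1 (0.32 and -0.18), as did Adra2a (-0.02 and 0.25). Libraries of 1 pool share animals, and all values share a library's depth and its mix of cells, so these are descriptions.

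Among 17239 protein-coding genes with a mean of at least 1 CPM, the 3 with the highest r over the same 18 libraries were named for each receptor gene. For Chrm1 these included Adam22 and Scn8a, a neuronal sodium channel (r = 0.99 for both). Hrh3 was most like Grm5, a metabotropic glutamate receptor (0.98), Cntnap1 and Olfm1. Chrm3 was most like Gabrb2 (0.97), Ano3 and Sv2b. Chrm2 was most like the potassium channel gene Kcns2 (0.94), Inpp5j and Cpne4. Adra2c was most like Kcnj4 (0.92), Scn4b and C1qtnf4, and Chrm4 like Crtac1 (0.90), Resp18 and Tmem59l. Adra1a was most like Fam171b (0.94), Trove2 and the creatine transporter Slc6a8, and Hrh1 like Ramp1 (0.91), Rorb, a transcription factor of cortical layers, and Fam173a. The nearest genes of Adra1b (Arl16, Zfp92 and Grin2d, at most 0.82) and Adra2a (Tbc1d8b, 0.81, Tbl3 and Trmt10c) were less like them.

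Neither drug gave a called difference in any receptor gene. In each of the 6 drug-vehicle comparisons 0 of 10 were called by edgeR and 0 by DESeq2, and 0% of all genes were called (32846 tested in microglia, 31022 in astrocytes and 25510 in neurons). At an unadjusted p under 0.05 there was 1 of 10, in microglia with clozapine, and 0 of 10 in the other 5 comparisons. The SE of a receptor gene's log2 difference ran from 0.31 to 0.63 over these comparisons, with 2 libraries per group. Differences larger than these SEs were also not called, down to -1.17 for Hrh3 with risperidone in microglia (edgeR adjusted p = 0.93). Over all genes 200 to 1407 had an unadjusted p under 0.05 with edgeR, and DESeq2 called 0 to 20. A p that misses the threshold does not show equal levels.

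Adra1b with clozapine in microglia was the gene under that unadjusted threshold. It had 4.55 and 6.03 CPM with vehicle, 11.7 and 9.21 with clozapine and 4.86 and 3.94 with risperidone, from 33 to 93 counts per library. Both clozapine libraries were above the other 4. Clozapine minus vehicle was 0.91 (SE 0.40, adjusted p = 1 with edgeR), with 1.31 in batch 1 and 0.59 in batch 2, and clozapine minus risperidone was 1.13 (SE 0.41, adjusted p = 0.67). In astrocytes clozapine minus vehicle was 0.38 (SE 0.51) and in neurons 0.14 (SE 0.41). With risperidone Adra1b was instead highest in neurons, at 10.9 and 21.2 CPM against 7.93 and 9.86 with vehicle (0.80, SE 0.41, edgeR adjusted p = 1). By batch the difference was 0.45 and 1.09. The batch 2 risperidone library (21.2) stood apart from the other neuron libraries. The next highest was clozapine batch 2 at 11.1 CPM, above risperidone batch 1.

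**Figure D4:**
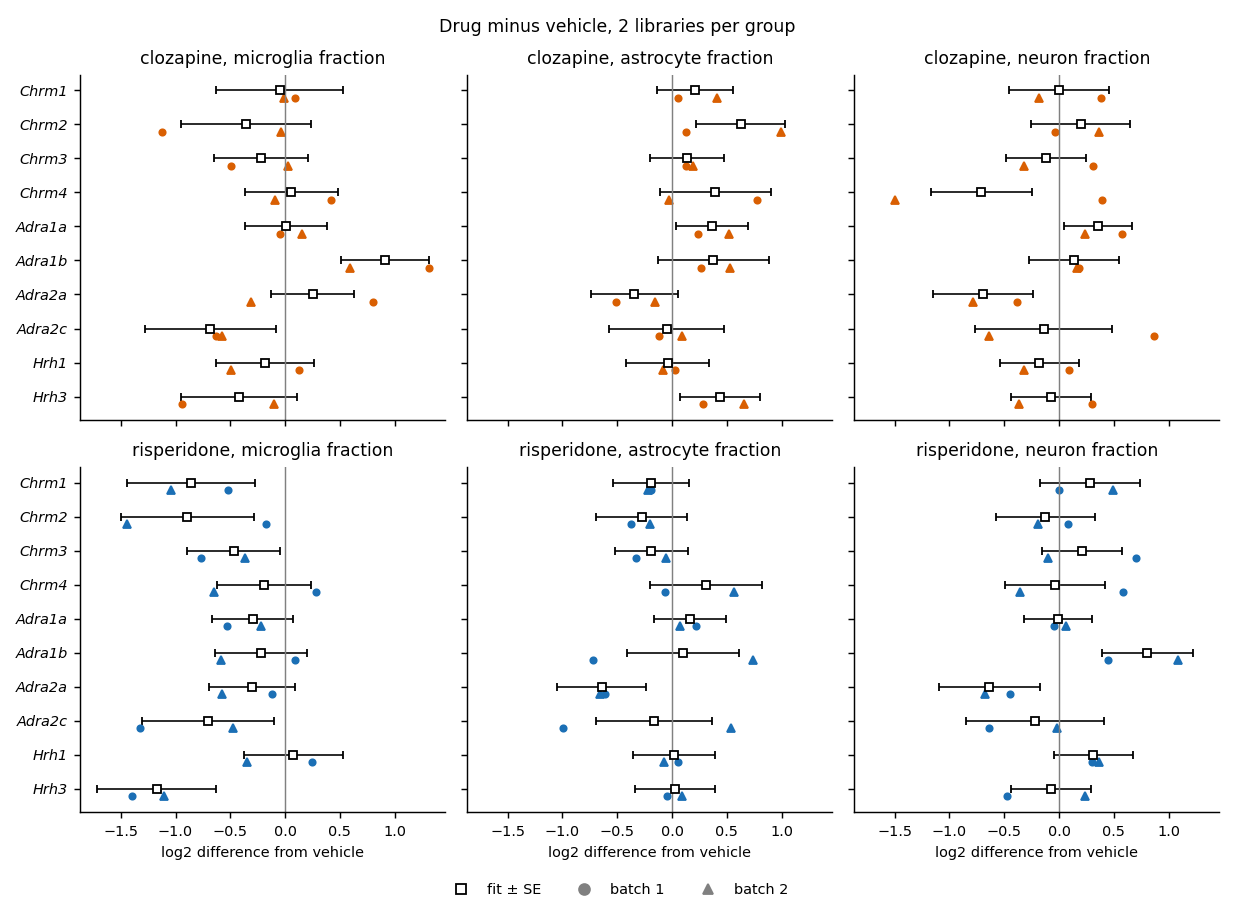
Log2 difference from vehicle for the 10 receptor genes with clozapine (upper row) and risperidone (lower row) in 3 fractions. Squares are fitted differences with SE bars, circles and triangles the differences within batch 1 and batch 2. No difference had an adjusted p under 0.05.

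Hrh3 had the lowest drug-vehicle difference of all 10 genes, with risperidone in microglia. It had 15.9 and 27.5 CPM with vehicle, 8.16 and 25.6 with clozapine and 5.89 and 12.6 with risperidone, so both risperidone libraries were below both vehicle libraries. The difference was -1.17 (SE 0.54, edgeR adjusted p = 0.93), with -1.39 in batch 1 and -1.11 in batch 2. In astrocytes risperidone minus vehicle was 0.02 (SE 0.37) and in neurons -0.08 (SE 0.36). Of the 10 genes, 7 were lower in both batches with risperidone in microglia and 0 were higher in both. The median difference of the 10 was -0.39 against 0.02 for all genes. Some of the 10 vary together, and the share of all genes lower in both batches is not given. The 12 pan-neuronal markers had a median of -0.58 in the same comparison with 0 called, and their part in the Hrh3 difference was not tested.

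Adra2a had lower values with both drugs in astrocytes and neurons, in both batches, and did not pass the test. In astrocytes it had 12.0 and 12.4 CPM with vehicle, 8.30 and 11.2 with clozapine and 7.75 and 7.77 with risperidone. The differences were -0.34 (SE 0.40) and -0.64 (SE 0.41). In neurons it had 9.20 and 18.6 CPM with vehicle, 6.98 and 10.7 with clozapine and 6.69 and 11.6 with risperidone, or -0.69 (SE 0.46) and -0.64 (SE 0.46). In neurons each drug group overlapped with vehicle, and in astrocytes both vehicle libraries were above all drug libraries. Both comparisons share the vehicle libraries, so they are not independent. In microglia Adra2a was 0.25 (SE 0.38) with clozapine, 0.80 in batch 1 and -0.31 in batch 2.

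The muscarinic genes showed no called drug difference. Chrm1 differed from vehicle by -0.05 (SE 0.58) in microglia, 0.21 (SE 0.35) in astrocytes and 0.0024 (SE 0.46) in neurons with clozapine, and by -0.85 (SE 0.58), -0.19 (SE 0.35) and 0.28 (SE 0.46) with risperidone. Chrm2 in astrocytes had 12.4 and 13.1 CPM with vehicle, 13.6 and 26.3 with clozapine and 9.55 and 11.4 with risperidone. Clozapine minus risperidone was 0.90 there (SE 0.41, edgeR adjusted p = 1.00), with 0.50 and 1.19 by batch, and 1 library, the batch 2 clozapine pool, stood apart. Chrm4 in neurons with clozapine was 0.39 in batch 1 and -1.50 in batch 2 (-0.71 in the fit, SE 0.46). Against vehicle, Chrm2 lay between -0.89 (SE 0.61, risperidone in microglia) and 0.63 (SE 0.41, clozapine in astrocytes), Chrm4 between -0.71 and 0.40 and Chrm3 between -0.47 and 0.21 in the 6 comparisons. Hrh1 lay between -0.18 and 0.31, with 0.31 (SE 0.36) for risperidone in neurons, and Adra1a between -0.30 and 0.36. Adra2c was below 0 in 6 of 6 comparisons, from -0.71 (SE 0.60, risperidone in microglia) to -0.05 (SE 0.52, clozapine in astrocytes), with none called, and it turned to 0.13 for clozapine in neurons with the replicate block. Both drugs share the vehicle libraries of a fraction, so these comparisons are not independent. By batch, Adra2c was above 0 for clozapine in neurons (0.87, batch 1). In astrocytes it was above 0 in batch 2 for risperidone (0.54) and clozapine (0.09). With single libraries left out, its sign changed in the astrocyte and neuron comparisons of both drugs. Adra2c in microglia had 4.42 and 7.83 CPM with vehicle, 2.76 and 5.19 with clozapine and 1.62 and 5.57 with risperidone, and the groups overlapped.

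Between the drugs, given at different doses, 0 of 10 genes were called in each fraction by edgeR and by DESeq2, where 0% of all genes were called. At an unadjusted p under 0.05 with edgeR there were Adra1b in microglia and Chrm2 in astrocytes. Of all genes, 2425 of 32846 in microglia and 330 of 31022 in astrocytes were under that threshold. Of the 10 genes 7 were higher with clozapine than with risperidone in both batches in microglia and 6 in astrocytes. In neurons 1 was higher and 4 were lower in both batches. For microglia, astrocytes and neurons the median of the 10 was 0.42, 0.29 and -0.17, and that of the 12 pan-neuronal markers was 1.00, 0.69 and 0.26. All genes tested had medians of -0.04, -0.05 and -0.05. The share of all genes with 1 sign in both batches is not given, and some of the 10 vary together, so the counts are descriptions. Whether a drug's difference differed between fractions was tested in 60 interactions, and 0 were called by edgeR or DESeq2 and 0 had an unadjusted p under 0.05 with edgeR. Over all genes 0% were called in 5 of these 6 comparisons and 0.00268% in the sixth, that of the risperidone effect in astrocytes and neurons.

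Other receptors of these families also differed between fractions. Adrb1, a Gs-coupled adrenergic receptor, averaged 20.5 CPM in microglia, 30.6 in astrocytes and 62.8 in neurons and was called lower than neurons in microglia (-1.61, SE 0.24) and astrocytes (-1.04, SE 0.24). Adra1d, a Gq-coupled receptor (8.48, 7.28 and 19.0 CPM), and Hrh2, Gs-coupled (12.3, 12.1 and 19.6 CPM), were called in the same direction, at -1.13 and -1.37 for Adra1d and -0.66 and -0.67 for Hrh2. Chrm5 averaged 4.56 CPM in microglia and 2.03 in neurons (1.44, SE 0.46, adjusted p = 0.015). Hrh4 was at 0 counts in 3 libraries and at most 26 counts in any, so its call between astrocytes and neurons (adjusted p = 0.021) rests on few reads. Adra2b and Adrb3 were not called. With library totals the calls of Adra1d (-0.52 and -0.80) and Hrh2 (-0.13 and -0.19) were lost, and with RLE those of Hrh2.

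Most genes of the G protein arms downstream of the receptors were called between microglia and neurons. Of 13 genes of the Gq and phospholipase C arm, 8 were called lower and 5 higher in microglia than in neurons (median -1.45). Itpr1, the neuronal inositol trisphosphate receptor, was -2.31 (SE 0.38) in microglia and -1.71 (SE 0.37) in astrocytes relative to neurons. Gna11 was called in microglia minus astrocytes (-1.20, SE 0.26, adjusted p = 0.0023), as was Plcb2, a phospholipase of blood-lineage cells (1.91, SE 0.29, adjusted p = 4.8e-05). Of 17 genes of the Gi, Go, Gs and cyclase arm, 15 were called lower and 1 higher in microglia than in neurons, and 11 lower and 0 higher in astrocytes. Gnao1, which encodes Go, averaged 261, 699 and 731 CPM in microglia, astrocytes and neurons, and Gnai3 was the gene higher in microglia (1.20, SE 0.22). In astrocytes minus neurons, 8 of the Gq genes were lower and 3 higher (Plcb3, Itpr2 and Itpr3, at 0.96, 1.03 and 0.96). Of all genes, 18.8% were called lower in microglia and 9.17% lower in astrocytes than in neurons, and 28.2% and 14.6% higher. With library totals the Gq list had 8 lower and 5 higher in microglia and 4 lower and 5 higher in astrocytes, and the Gi, Go, Gs and cyclase list 12 lower and 2 higher in microglia and 9 lower and 2 higher in astrocytes.

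Of 15 regulators, which end or redirect receptor signals, 9 were called lower in microglia than in neurons and 2 higher. In astrocytes 9 were lower than in neurons and 0 higher. Of all genes, 18.8% were called lower and 28.2% higher in microglia than in neurons, and 9.17% and 14.6% in astrocytes. These counts are with TMM, and those with library totals are not given for this list. Rgs4, which shortens Gi and Gq signals, was -2.10 (SE 0.42) and -1.69 (SE 0.41). Rgs2, a Gq regulator, and Arrb2, an arrestin, were higher in microglia than in both other fractions, Rgs2 at 103 CPM against 29.2 in astrocytes and 38.8 in neurons. With risperidone in microglia, Rgs2 was -1.15 (SE 0.38) and Rgs9 -1.29 (SE 0.42), and Rgs9 was -1.29 with clozapine too, with edgeR adjusted p of at least 0.93. Rgs9 is also a striatal projection neuron marker, and those 10 markers had medians of -0.74 and -0.55 in the same comparisons. No gene of the 6 pathway lists was called in any drug-vehicle comparison.

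Genes that make and clear the 3 transmitters were sparse, apart from the clearing enzymes. Chat, which makes acetylcholine, averaged 5.71, 4.74 and 3.64 CPM in microglia, astrocytes and neurons, and Th, which makes the catecholamine precursor, 5.34, 5.54 and 5.13. Hdc, the histamine-making enzyme, averaged 4.67, 4.39 and 1.18 CPM and was called lower in neurons than in both others (2.06 and 1.97, SE 0.46). Of the 10 noradrenaline genes, Maoa and Maob, which break down monoamines, were called lower in microglia than in astrocytes (-1.52 and -2.12) and than in neurons (-1.10 for Maob), and Maob was higher in astrocytes than in neurons (1.02, SE 0.30). Slc6a2, the noradrenaline transporter, was called higher than neurons in both glial fractions, from 5.75, 4.74 and 1.70 CPM on average, with 0 counts in 1 library. Ache, which clears acetylcholine, was called highest in neurons (30.7 CPM against 20.9 and 19.1). The Ache call was lost with RLE and with library totals (-0.01 in microglia and -0.22 in astrocytes), and the Maoa and Maob calls in microglia minus neurons were lost with library totals (-0.44 and -0.53). Hnmt, which clears histamine, averaged 14.5, 14.3 and 15.5 CPM, without a called difference.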

How the data were processed

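RNA of 18 immunopanned fractions was measured by paired-end RNA-seq. The deposited values are whole-number counts per gene, made per the file headers with featureCounts 2.0.8 on exons of a GRCm39 annotation, with multi-overlapping reads allowed, no strand setting and both reads of a pair counted. No aligner is named in the labels, notes or headers used here. Total counts of 4.71 to 13.39 M per library set the precision, which is counting error plus the spread between pools. Each group has 2 pools of 5 animals, so p-values measure the spread between pools.

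Counts were fitted with edgeR 4.0.16 (R 4.3.3, quasi-likelihood test, filterByExpr, TMM scaling), over 18 libraries for fractions and interactions and over 6 per fraction for drugs. Benjamini-Hochberg adjustment covered all genes tested, at 0.05. Drawn counts with known changes were used to test the code on simulated data. Alternatives were DESeq2 1.42.0, RLE scaling, no filter, vehicle libraries, a replicate block, each library left out and, added later, library totals only. All 10 receptor genes are named. Of the other lists, called genes or those with the highest level per kb could be named, and for likeness the 3 genes with the highest r. Chat, Th, Hnmt, Adra2b, Adrb3 and the drug values of Rgs2 and Rgs9 were chosen after their values were seen, as were the scalings of the lists. Some results are not reported here. The members and lists were chosen with earlier results of these data known.

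Fractions of a pool share animals, per the labels, and treatments share a labelled batch, so the numbers pair the libraries. Deviations of same-numbered libraries correlated at 0.10 to 0.45 between treatments of a fraction and at -0.39 to 0.12 between fractions of a treatment (9 pairs each). Promoter windows are from RefSeq (GRCm38.p6), a build other than that of the counts.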

Additional observations from a re-analysis of the deposited data

Results flagged for a closer look

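In 2 of the 30 groups of 6 libraries (10 receptor genes in 3 fractions), 1 library stood apart by Dixon's test, where the gap to the next library over the whole range exceeded the 95% critical value for 6 libraries. Chrm2 in the astrocyte clozapine library of batch 2 was at 26.3 CPM, where the next library had 13.6 CPM and the median was 12.8 (gap over range 0.756). Adra1b in the neuron risperidone library of batch 2 was at 21.2 CPM, where the next had 11.1 CPM and the median was 10.4 (gap over range 0.762). Chance alone marks about 5% of such groups. The cause was not tested.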

How the results depend on the processing

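With every alternative, called fraction differences kept their sign. Members called were 2, 9 and 6 for microglia minus astrocytes, microglia minus neurons and astrocytes minus neurons. Without the low-count filter the first was 1, where 8.59% of all genes were called. With RLE scaling the third was 5 (Adra2c lost), where the all-gene share was 24.7%. With library totals the second was 5 and the third 3, where 48.1% and 29.8% of all genes were called. With vehicle libraries alone, where fewer libraries were used, the counts were 0, 0 and 0 (edgeR). Leaving out each library gave 0 to 2, 7 to 9 and 4 to 7. In the 9 drug comparisons 0 members were called with any setting. The replicate block, which pairs libraries by pool or batch, changed no member call and gave 2, 9 and 6. The differences that changed sign were not called under TMM, and the cause was not tested. With vehicle libraries alone the reversed values were Chrm1 0.24, Chrm4 0.21 and Hrh3 0.42 (microglia minus astrocyte), Adra2a -0.15 (microglia minus neuron) and Hrh1 -0.0007 (astrocyte minus neuron). With the replicate block the reversed values were Chrm2 -0.0086 and Chrm3 -0.0296 (microglia minus astrocyte), Hrh1 -0.0293 (astrocyte minus neuron), Adra1a -0.0063 (clozapine minus vehicle in microglia) and Adra2c 0.13 (clozapine minus vehicle in neuron). With DESeq2 the reversed values were Adra1a 0.0076 and Adra2a 0.0276 (astrocyte minus neuron) and Chrm4 0.003 and Adra1a 0.0206 (risperidone minus vehicle in neuron). With RLE scaling the reversed values were Adra1a 0.0079 and Adra2a 0.028 (astrocyte minus neuron) and Chrm4 0.0019 and Adra1a 0.0206 (risperidone minus vehicle in neuron). With 18 libraries in 1 fit the reversed values were Chrm1 0.015 (clozapine minus vehicle in microglia) and Adra1a 0.0175 (risperidone minus vehicle in neuron). Without the filter the reversed values were Adra1a 0.0003 (risperidone minus vehicle in neuron). With library totals the reversed values were Adra1a 0.37 and Adra2a 0.43 (astrocyte minus neuron), Chrm4 -0.0179 and Adra1a -0.0753 (clozapine minus vehicle in microglia), Chrm3 -0.0394 (clozapine minus vehicle in astrocyte), Hrh1 -0.12 and Hrh3 -0.0865 (risperidone minus vehicle in astrocyte), Chrm1 -0.12 and Adra1b -0.0089 (clozapine minus vehicle in neuron) and Chrm4 0.0559 and Adra1a 0.0404 (risperidone minus vehicle in neuron). With each library left out in turn, microglia minus astrocyte ran from -0.49 to 0.0459 for Chrm1, from -0.41 to 0.35 for Chrm2, from -0.18 to 0.17 for Chrm3, from -0.29 to 0.0383 for Chrm4 and from -0.34 to 0.0051 for Adra1b. Across fits without 1 library, astrocyte minus neuron ran from -0.19 to 0.0311 for Adra1a, from -0.21 to 0.16 for Adra2a and from -0.0895 to 0.18 for Hrh1. When single libraries were left out, clozapine minus vehicle in microglia ran from -1.08 to 1.01 for Chrm1, from -1.995 to 0.37 for Chrm2, from -0.91 to 0.23 for Chrm3, from -0.33 to 0.53 for Chrm4, from -0.38 to 0.29 for Adra1a, from -0.25 to 0.58 for Adra2a, from -0.73 to 0.19 for Hrh1 and from -1.55 to 0.19 for Hrh3. In the same fits, risperidone minus vehicle in microglia ran from -1.51 to 0.21 for Chrm1, from -0.60 to 0.27 for Chrm4, from -0.49 to 0.033 for Adra1b and from -0.50 to 0.50 for Hrh1. With each library left out in turn, clozapine minus vehicle in astrocyte ran from -0.0236 to 0.30 for Chrm3, from -0.29 to 0.23 for Adra2c and from -0.32 to 0.20 for Hrh1. Across fits without 1 library, risperidone minus vehicle in astrocyte ran from -0.17 to 0.67 for Chrm4, from -0.58 to 0.56 for Adra1b, from -0.81 to 0.28 for Adra2c, from -0.26 to 0.22 for Hrh1 and from -0.24 to 0.32 for Hrh3. When single libraries were left out, clozapine minus vehicle in neuron ran from -0.36 to 0.46 for Chrm1, from -0.64 to 0.70 for Chrm2, from -0.50 to 0.40 for Chrm3, from -1.19 to 0.0111 for Chrm4, from -0.0226 to 0.24 for Adra1b, from -0.71 to 0.84 for Adra2c, from -0.41 to 0.0643 for Hrh1 and from -0.24 to 0.0673 for Hrh3. In the same fits, risperidone minus vehicle in neuron ran from -0.43 to 0.80 for Chrm1, from -0.49 to 0.39 for Chrm2, from -0.18 to 0.75 for Chrm3, from -0.52 to 0.73 for Chrm4, from -0.15 to 0.16 for Adra1a, from -1.61 to 0.81 for Adra2c and from -0.60 to 0.35 for Hrh3. In fits without 1 library the lone library of its group is assumed to vary like the others. Depth limits the low members, with as few as 11 counts of Adra2c in a library.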
